A study of Mus musculus with 19 samples.

Results

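The genes described here are 9 genes known from satellite glia: Fabp7, Kcnj10, Ednrb, Glul, Gja1, Slc1a3, Cdh19, Gfap and Apod. They were taken by name out of 18193 genes with a symbol on the array, and all 9 were among the 13460 genes tested. The probe set (an Affymetrix group of probes for 1 transcript) of each gene was chosen by its mean log2 intensity over the 19 arrays, and the list was selected on earlier results of these data. Sciatic nerves of inbred DBA/2J mice were hybridised to Affymetrix arrays, 1 array a mouse per the design text. Diabetes was produced with streptozotocin (STZ), a toxin of insulin-producing cells, and some mice received rosiglitazone, which activates the nuclear receptor PPAR gamma. The groups were 5 diabetic mice given rosiglitazone (DR), 5 diabetic mice given vehicle (DV), 5 control mice given rosiglitazone (CR) and 4 control mice given vehicle (CV, 1 array having been excluded by the submitters after quality control). All groups shared strain and nerve, and neither the age of the mice, nor the dose of STZ or rosiglitazone, nor the length of treatment is given in the sources used here. An array is written as its group and the number in its title, such as DV706.

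Satellite glia are the cells that wrap the cell bodies of sensory neurons in dorsal root and other ganglia. They come from the neural crest, as Schwann cells do, and resemble astrocytes in several ways: they take up glutamate and potassium around the neuron, couple to each other through gap junctions and raise the filament protein GFAP after nerve injury. Most genes of the list are not theirs alone. Astrocytes express Gfap, Glul, Slc1a3, Kcnj10 and Gja1, Schwann cells express Cdh19, Ednrb and Apod, and Fabp7 is found in radial glia and in several other glial cells.

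The list did not behave as 1 group. Values are log2 of deposited intensities, on which 1 unit is a 2-fold difference, and each gene stands for its brightest probe set. Values of different genes come from different probes and are not set against each other. In 5 arrays, DR716, DV706, DV707, DV709 and CR715, Fabp7 and Kcnj10 lay below every one of the other 14 arrays, and Gfap lay below 12 of those 14. The 5 arrays had been set apart in earlier work on these data by low transcripts of sensory neurons, so they are no group of the study, and their values are given as a description with no test. Glul, Gja1, Cdh19, Ednrb, Slc1a3 and Apod had medians within 0.23 log2 of those of the other 14 arrays. Centring each array on its median, which moves the median difference over all tested genes to 0.22 from 0.05, kept Fabp7, Kcnj10 and Gfap low but put 6 of the 9 genes higher in the 5 arrays, Ednrb by 0.41 and the other 5 by 0.07 to 0.23. As a check of the label, then, only Fabp7 and Kcnj10 of the 9 genes separated these 5 arrays. Gfap, with a median difference of -3.73, overlapped only through DR720 and CV703. In the probe sets used, the remaining genes were present at overlapping levels in both sets.

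The promoters of Fabp7, Kcnj10 and Gfap are shown because these are the 3 genes whose levels moved by several log2 units between arrays. Sequences are RefSeq's on build GRCm38.p6, 5′ to 3′ on the gene's strand, from 250 bases before to 50 bases after the annotated start. Capitals mark a match to a searched motif. The Fabp7 window is chr10:57784673-57784972 on the plus strand, that of Kcnj10 chr1:172340960-172341259 on the plus strand, and that of Gfap chr11:102897151-102897450 on the minus strand.
Fabp7: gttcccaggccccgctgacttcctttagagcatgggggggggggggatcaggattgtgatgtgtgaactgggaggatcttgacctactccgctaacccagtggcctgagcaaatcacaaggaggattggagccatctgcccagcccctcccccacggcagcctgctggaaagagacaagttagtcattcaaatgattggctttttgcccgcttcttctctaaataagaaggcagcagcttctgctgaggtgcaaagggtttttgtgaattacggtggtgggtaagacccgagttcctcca
Kcnj10: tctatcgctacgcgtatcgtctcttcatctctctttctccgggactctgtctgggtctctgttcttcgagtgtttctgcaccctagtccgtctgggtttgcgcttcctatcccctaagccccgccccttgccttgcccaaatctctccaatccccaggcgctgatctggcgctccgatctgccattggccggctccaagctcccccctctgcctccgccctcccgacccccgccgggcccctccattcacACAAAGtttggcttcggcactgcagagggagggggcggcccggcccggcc
Gfap: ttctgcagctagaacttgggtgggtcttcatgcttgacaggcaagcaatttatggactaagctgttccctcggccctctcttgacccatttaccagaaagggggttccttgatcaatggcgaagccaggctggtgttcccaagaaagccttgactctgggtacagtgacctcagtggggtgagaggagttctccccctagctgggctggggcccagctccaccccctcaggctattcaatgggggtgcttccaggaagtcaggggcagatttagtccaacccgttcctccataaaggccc
Of the 9 genes, 8 had a promoter entry, and Cdh19 had none in the table. The SOX core ACAAAG, searched on both strands as all motifs were, was found in 2 of the 8, Kcnj10 and Apod, against 18.7% of all 32851 promoters of the table. The other SOX core, ACAATG, was found in 1 of 8, Apod, against 12.6% of all. The direct repeat bound by PPAR and RXR, in 0.0396% of all promoters, the cAMP response element TGACGTCA, in 1.79%, and the POU octamer ATGCAAAT, in 1.74%, had no match in the 8 windows. None of the 3 printed windows shared a match with another.

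The tissue label was checked on marker genes. Mbp, a myelin protein of Schwann cells and oligodendrocytes, lay between 13.83 and 14.44 on all 19 arrays, and Pmp22, a myelin protein of peripheral nerve, between 13.82 and 14.34. Not all myelin genes were as even. Mag, of the same marker list, lay between 6.76 and 9.41 on the 5 arrays and between 8.97 and 9.78 on the other 14, with medians of 8.02 and 9.39. Isl1, a transcription factor of sensory neuron cell bodies, lay between 3.83 and 6.41 on the 5 arrays and between 9.47 and 11.35 on the other 14. Mog, a protein of central myelin, lay between 4.02 and 5.32 on the 5 arrays, at 3.47 on DR720 and 3.60 on CV703, and between 7.60 and 9.82 on the other 12. So 14 arrays carried neuron cell body transcripts and 12 also carried oligodendrocyte transcripts, neither of which the label of sciatic nerve names. The difference between 2 Gapdh probe sets, 3′ minus 5′, which grows as RNA is shortened, was 4.38 on DV707, 3.71 on DV706 and 1.75 on DR716, against 1.00 to 1.37 on the other 16 arrays, so RNA integrity overlapped in part with the 5 arrays. With that Gapdh difference as a covariate, the 9 genes' median difference between DV and CV arrays was -0.41. There 0 of 9 had an unadjusted p under 0.05 (limma), beside 764 of all 13460 tested genes. Without DV706 and DV707 the median was -0.42, again with 0 of 9, beside 606 of 13460. In whole tissue, fewer cells of a type and less RNA per cell cannot be told apart.

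Fabp7, a fatty acid carrier of the brain lipid-binding type, had the widest range of the 9 genes, 8.07 log2 over 19 arrays. It was 4.29, 12.01, 12.31, 11.01 and 11.01 on DR716 to DR720, in order, and 5.31, 4.24, 11.82, 5.38 and 11.77 on DV706 to DV710. It was 10.30, 11.95, 12.11, 11.73 and 6.67 on CR711 to CR715 and 11.82, 12.17, 11.52 and 11.68 on CV702 to CV705. Levels fell into 2 sets with nothing between: 5 arrays at or under 6.67 and 14 at or over 10.30, a gap of 3.64 log2. All 4 CV arrays were in the high set, 4 of 5 in CR and in DR, and 2 of 5 in DV. The medians were 5.31 in the 5 arrays and 11.79 in the other 14, a difference of -6.49.

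Kcnj10, the inward rectifier potassium channel Kir4.1 through which glia take up potassium, followed the same split with a smaller gap of 0.48. It was 7.57, 10.40, 10.71, 10.51 and 8.85 on the DR arrays and 8.37, 6.58, 11.13, 6.93 and 10.17 on the DV arrays. It was 10.09, 10.53, 10.64, 10.96 and 6.17 on the CR arrays and 11.23, 9.12, 10.55 and 9.94 on the CV arrays. The lowest 5 arrays were again DR716, DV706, DV707, DV709 and CR715, with a median of 6.93 against 10.52, and the next 2 above them were DR720 and CV703. Of all 13460 tested genes, 591 (4.39%) had all 5 arrays below the other 14, and 2 of the 9 genes did.

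Gfap, the intermediate filament of astrocytes and of reactive satellite glia, split the arrays differently. It was 8.20, 11.64, 12.14, 11.97 and 7.54 on the DR arrays and 9.56, 8.33, 12.10, 8.12 and 11.75 on the DV arrays. It was 11.74, 11.88, 12.08, 12.18 and 6.95 on the CR arrays and 12.36, 8.54, 12.13 and 11.71 on the CV arrays. Here 7 arrays were low, the 5 above together with DR720 and CV703, and the other 12 lay between 11.64 and 12.36. All 3 Gfap probe sets had lower medians in the 5 arrays, with differences of -3.73 to -5.05. DR720 and CV703 were thus low in Gfap and Kcnj10 but high in Fabp7, at 11.01 and 12.17.

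**Figure D1:**
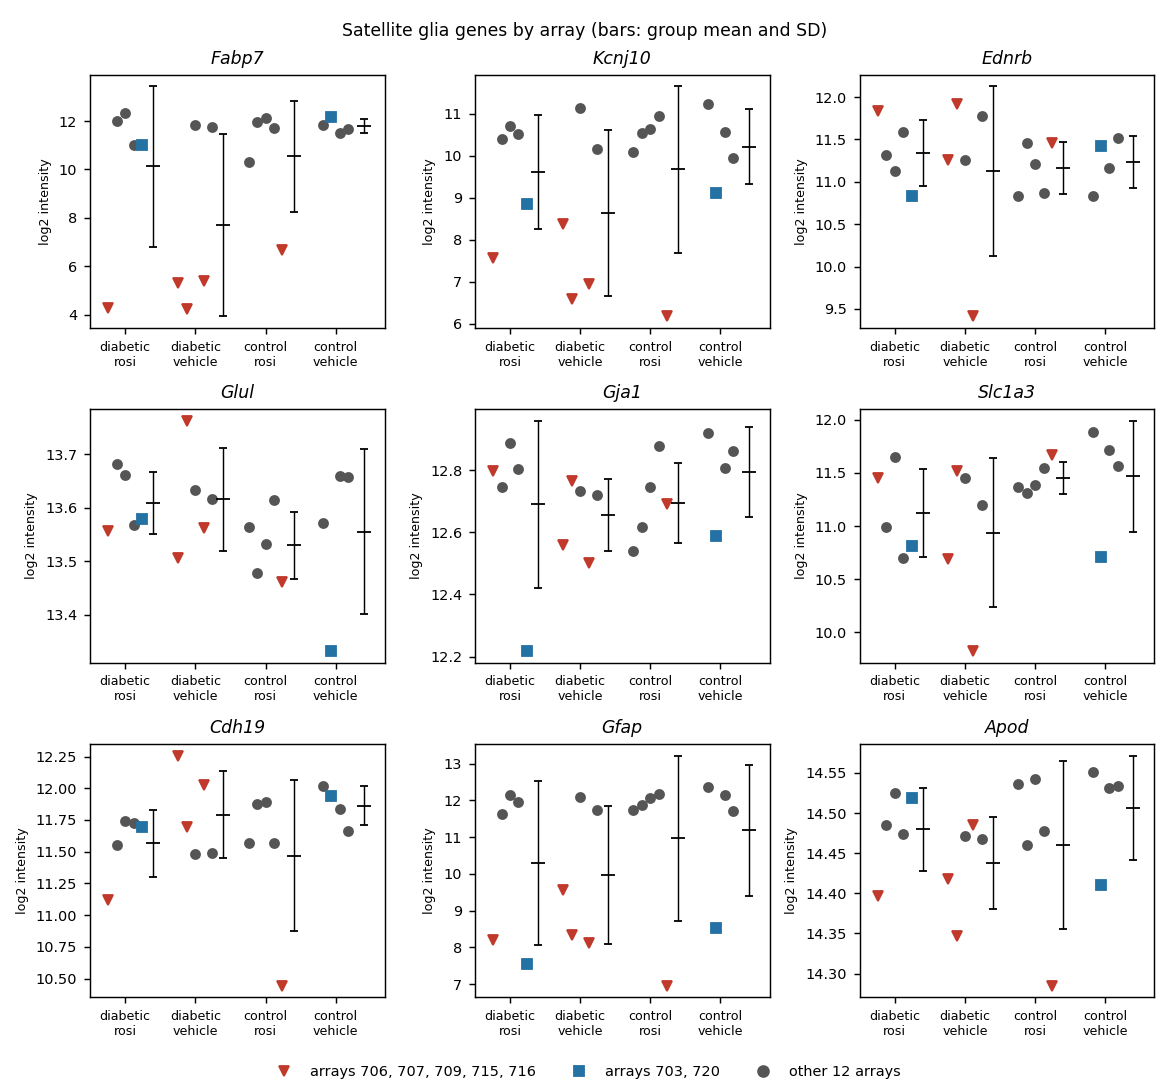
Log2 intensity (vertical axis, own scale for each gene) of the 9 genes on 19 arrays by group; points are single arrays, triangles the 5 arrays DR716, DV706, DV707, DV709 and CR715, squares DR720 and CV703, and bars the group mean and SD (n = 5, 5, 5 and 4). Fabp7 lies at or under 6.67 in the 5 triangles and at or over 10.30 elsewhere, while Apod, in the probe set used, spans 0.27 log2 in all.

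DR720 and CV703 were chosen for a closer description after the data were seen, from Gfap. Both lay below the other 12 arrays with neuron transcripts in 2 of the 9 genes, Kcnj10 and Gfap, beside 1.22% of all tested genes (164). For Gfap this was fixed by the choice, which leaves Kcnj10 alone, so nothing is read from the count. All 7 tested oligodendrocyte markers did the same: Mobp, a central myelin protein, was 4.36 on DR720 and 7.28 on CV703, and at least 10.16 on the 12. So did 5 of 10 astrocyte markers, among them the water channel Aqp4 at 7.73 and 6.91, against at least 10.76, and the glutamate transporter Slc1a2 at 7.08 and 7.03, against at least 9.38. Aldh1l1, first of the astrocyte list, did not, at 10.47 on DR720 and 9.27 on CV703, against at least 9.67. None of 12 sensory neuron markers lay below the 12 arrays on both. The summed neuron level, a mean of log2 values centred on each gene's mean, was 1.63 on DR720 and 1.18 on CV703, inside the 0.03 to 2.04 of all 14 arrays. The oligodendrocyte level was -2.48 on DR720 and -1.74 on CV703, -1.86 to -1.48 in the 5 arrays and 0.29 to 1.86 in the 12. The astrocyte level was -0.59 and -1.12 on these 2 arrays, -2.54 to -2.11 in the 5 and 0.52 to 1.54 in the 12. The part of these other cells in the levels of Gfap and Kcnj10 was not tested.

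**Figure D2:**
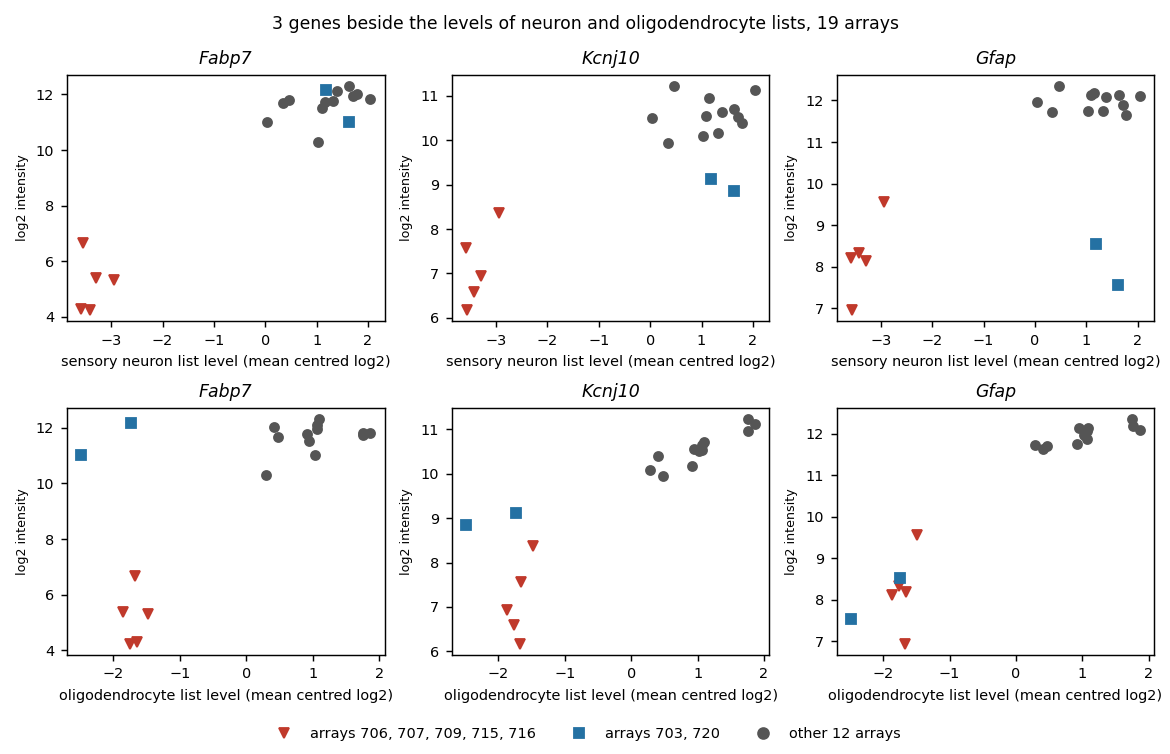
Log2 intensity of Fabp7, Kcnj10 and Gfap (vertical axes) against the level of the sensory neuron list (top) and of the oligodendrocyte list (bottom), both as mean centred log2 over the list; each point is 1 of 19 arrays. DR720 and CV703, the squares, sit with the 12 high arrays for Fabp7 but below them for Gfap, at 7.54 and 8.54 against 11.64 or more.

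Slc1a3, the glial glutamate transporter GLAST, is the uptake step of the glutamate cycle. It was 11.45, 10.99, 11.65, 10.70 and 10.81 on the DR arrays and 10.69, 11.52, 11.45, 9.82 and 11.20 on the DV arrays. It was 11.36, 11.31, 11.39, 11.55 and 11.67 on the CR arrays and 11.88, 10.71, 11.71 and 11.57 on the CV arrays. DV709 was the lowest array, and the groups overlapped. The result depended on the probe set: the brightest differed by 0.08 between the medians of the 5 arrays and the other 14, while 4 of the 6 probe sets of the gene were lower in the 5, one with a difference of -1.73 (a median of 6.50 against 8.23) and another with -1.28. Taking the mean of all 6 gave -0.69. Glul, the glutamine synthetase that turns the glutamate taken up into glutamine, lay between 13.33 on CV703 and 13.76 on DV707, with medians of 13.56 in the 5 arrays and 13.60 in the 14. Its other probe set ran wider, between 10.04 on DV706 and 10.996 on DR720, and its median was higher in the 5 arrays, 10.88 against 10.64, a difference of 0.24.

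Gja1, the connexin 43 of glial gap junctions, lay between 12.22 on DR720 and 12.92 on CV702. Its medians were 12.69 in the 5 arrays and 12.75 in the other 14, and its 6 probe sets differed by 0.03 to -0.23. Ednrb, the endothelin B receptor, which also marks the neural crest, was 11.83, 11.32, 11.13, 11.59 and 10.83 on the DR arrays and 11.26, 11.92, 11.26, 9.41 and 11.78 on the DV arrays. It was 10.83, 11.45, 11.21, 10.87 and 11.46 on the CR arrays and 10.83, 11.42, 11.16 and 11.52 on the CV arrays. In the probe set used, DV709 stood alone at 9.41, and the other 18 arrays lay between 10.83 and 11.92 whatever their group. DV709 was also lowest in the dimmer probe sets of Ednrb, at 5.44 and 5.20. The lowest of the other 14 arrays were 6.69 and 5.22 there, so in the last of these DV709 did not stand alone.

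Cdh19, a cadherin of the Schwann cell lineage, was 11.12, 11.55, 11.74, 11.72 and 11.69 on the DR arrays and 12.26, 11.69, 11.48, 12.03 and 11.49 on the DV arrays. It was 11.57, 11.88, 11.90, 11.56 and 10.44 on the CR arrays and 12.02, 11.94, 11.83 and 11.67 on the CV arrays. Of the 5 arrays, 2 were the highest of all (DV706 and DV709) and 2 the lowest (CR715 and DR716), so its medians were alike, 11.69 and 11.71. Apod, a lipid-binding lipocalin that peripheral nerve makes in large amounts after injury, lay between 14.28 on CR715 and 14.55 on CV702, and its medians were 14.40 in the 5 arrays and 14.50 in the other 14. Its other, dimmer probe set ran between 12.11 on CR715 and 13.06 on CV702, with medians of 12.89 and 12.92.

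**Figure D3:**
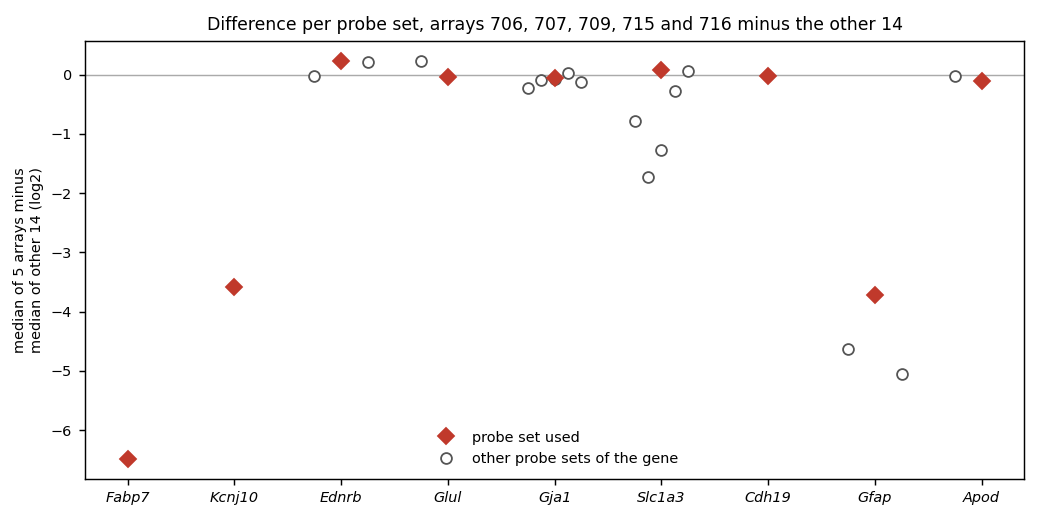
Difference in log2 intensity between the median of the 5 arrays DR716, DV706, DV707, DV709 and CR715 and the median of the other 14, for every probe set of the 9 genes; filled diamonds are the probe sets used and open circles the others. Slc1a3 spreads from 0.08 to -1.73, and all 3 Gfap probe sets lie at or under -3.73.

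The comparison of diabetic with control mice under vehicle asks what diabetes does to these genes in nerve. None of the 9 genes passed an adjusted p of 0.05 (limma, Benjamini-Hochberg over 13460 genes), and no gene of the array did. At an unadjusted p under 0.05, 1 of 9 did, Fabp7, against 18.1% of all tested genes, a share near the background. Fabp7 averaged 7.70 ± 3.76 in DV arrays and 11.80 ± 0.28 in CV arrays (SD, n = 5 and 4), a difference of -4.09 with a 95% interval of -7.88 to -0.31 (limma adjusted p = 0.256). Of the DV arrays, 2 of 5 were at the CV level and 3 of 5 far under it. Without the 5 arrays, which leaves 2 DV and 4 CV arrays, the difference was -0.0016 (-1.04 to 1.04).

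Kcnj10 averaged 8.64 ± 1.98 in DV arrays and 10.21 ± 0.90 in CV arrays (SD, n = 5 and 4), a difference of -1.58 (-3.78 to 0.63, limma adjusted p = 0.398). Gfap averaged 9.97 ± 1.87 in DV arrays and 11.18 ± 1.78 in CV arrays, a difference of -1.21 (-3.96 to 1.53, limma adjusted p = 0.596). Both differences turned round without the 5 arrays, to 0.44 for Kcnj10 (-0.83 to 1.70) and 0.74 for Gfap (-1.91 to 3.40). With DR720 and CV703 left out too, the Gfap difference was -0.14, with a narrower interval of -0.63 to 0.35, and that of Kcnj10 was 0.07.

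Slc1a3 averaged 10.94 ± 0.70 in DV arrays and 11.47 ± 0.52 in CV arrays, a difference of -0.53 (-1.19 to 0.13, limma adjusted p = 0.352). All 6 of its probe sets were lower in DV, with differences of -0.53 to -2.21, and their mean gave -1.15 (-1.66 to -0.65), which did not pass either (limma adjusted p = 0.192). Cdh19 differed by -0.07 with all arrays and by -0.38 (-0.66 to -0.10) without the 5 arrays, again not past the threshold (limma adjusted p = 0.419). Without those arrays 11.4% of all genes had an unadjusted p under 0.05, and 1 of the 9 genes, Cdh19, did. Ednrb, Glul, Gja1 and Apod differed by -0.11, 0.06, -0.14 and -0.07. The median of the 9 differences was -0.14, with 8 of 9 below 0, beside a median of 0.03 over all tested genes. That median moved with single arrays but stayed below 0: with 1 array left out it ran from -0.31 to -0.13, with 7 to 9 of 9 below 0. It was -0.31 without DV707, -0.27 without DV710 and -0.24 without CV702, all further from 0. With all probe sets averaged it was -0.37. Without the 5 arrays it was -0.0016, with 5 of 9 below 0. After array median centring, which put the median of all genes at 0.12, 6 of 9 were below 0 and Cdh19 and Apod were at 0.02 and 0.03. The DV and CV arrays overlapped in all 9 genes, whereas 5.06% of all tested genes had groups that did not overlap.

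The comparison of rosiglitazone with vehicle in diabetic mice asks whether the drug moves these genes under diabetes. It shares the DV arrays with the comparison above, so a low DV mean enters both, with opposite sign. None of the 9 genes, and no gene of the array, passed (limma, Benjamini-Hochberg). At an unadjusted p under 0.05 the counts were 0 of 9 genes and 9.70% of all. Fabp7 averaged 10.13 ± 3.32 in DR arrays and 7.70 ± 3.76 in DV arrays (SD, n = 5 each), a difference of 2.42 (-1.15 to 5.99, limma adjusted p = 0.556). Kcnj10 differed by 0.97 (-1.11 to 3.05), at 9.61 ± 1.36 in DR and 8.64 ± 1.98 in DV arrays, and Gfap by 0.32 (-2.26 to 2.91), at 10.30 ± 2.23 in DR and 9.97 ± 1.87 in DV arrays. Among DR arrays 1 of 5 was in the low set of Fabp7, among DV arrays 3 of 5. Without the 5 arrays, which leaves 4 DR and 2 DV arrays, the differences were -0.21 for Fabp7 (-1.25 to 0.83), -0.53 for Kcnj10 (-1.79 to 0.74) and -1.10 for Gfap (-3.76 to 1.55), with 0 of 9 genes and 4.23% of all at an unadjusted p under 0.05. In the probe sets used, the other 6 genes differed by between -0.22 (Cdh19) and 0.21 (Ednrb), with all arrays. Dimmer probe sets differed by more: all 6 of Slc1a3 were higher in DR, by 0.18 to 1.26, and all 3 of Ednrb, by 0.21 to 0.64. Those of Glul, Gja1 and Apod went both ways. The groups overlapped in all 9 genes, against 0.632% of all tested genes without overlap.

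The comparison of rosiglitazone with vehicle in control mice asks what the drug does without diabetes, and it shares the CV arrays with the comparison of diabetes under vehicle. Again none of the 9 genes and no gene of the array passed (limma, Benjamini-Hochberg), and at an unadjusted p under 0.05 the counts were 0 of 9 genes and 2.83% of all. Fabp7 averaged 10.55 ± 2.29 in CR arrays and 11.80 ± 0.28 in CV arrays (SD, n = 5 and 4), a difference of -1.24 (-5.03 to 2.54). Without the 5 arrays, which takes CR715 from these groups, it was -0.27 (-1.12 to 0.58), and 0 of 9 genes and 8.90% of all had an unadjusted p under 0.05. Cdh19 differed by -0.39 (-0.92 to 0.13), at 11.47 ± 0.60 in CR and 11.86 ± 0.15 in CV arrays, and without CR715 the difference was -0.14. All 9 differences were below 0 (8 of 9 after quantile normalization, where Slc1a3 was at 0.01), with a median of -0.10, beside 0.003 over all tested genes. That count depended on single arrays: 3 of 9 were above 0 without CV704 or without CV705, 2 of 9 without CV702, CR711 or CR715, and 2 of 9 with array weights. The median was -0.26 without CV703, -0.04 without CV705, -0.15 without CR714 and between -0.14 and -0.06 without any other single array of these groups. The 3.45% of genes without overlap between these groups included none of the 9.

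Between diabetic and control mice under rosiglitazone 0 of the 9 genes and 0 of all genes passed the adjusted threshold (limma, Benjamini-Hochberg). At an unadjusted p under 0.05 the counts were 0 of 9 genes and 1.29% of all. The differences ran from -0.67 for Gfap (-3.26 to 1.92) over -0.42 for Fabp7 (-4.00 to 3.15) to 0.18 for Ednrb. The Fabp7 difference was 1.03 without DR716, -1.40 without CR715 and 0.06 without the 5 arrays. That of Gfap was 0.02 without DR720, -1.67 without CR715 and -1.15 without the 5 arrays. Groups overlapped in all 9 genes, against 0.401% of all genes without overlap. The interaction, the rosiglitazone difference in diabetic mice minus that in control mice, was 3.67 for Fabp7 (-1.54 to 8.87, limma adjusted p = 0.748) and above 0 in all 9 genes (7 of 9 after array median centring), with 0 of 9 at an unadjusted p under 0.05, against 4.77% of all. Without the 5 arrays the interaction of Fabp7 was 0.06 (-1.28 to 1.41), and 5 of 9 genes were above 0, with a median of 0.005. Without the 5 arrays these counts were 0 of 9 against 5.66% under rosiglitazone and 0 of 9 against 6.97% for the interaction. An interval of this width leaves differences of several log2 units of Fabp7 undetectable with 4 or 5 arrays a group. Nothing in the labels says more of each array's source than 1 mouse of the group, so p-values measure only the spread between these arrays.

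**Figure D4:**
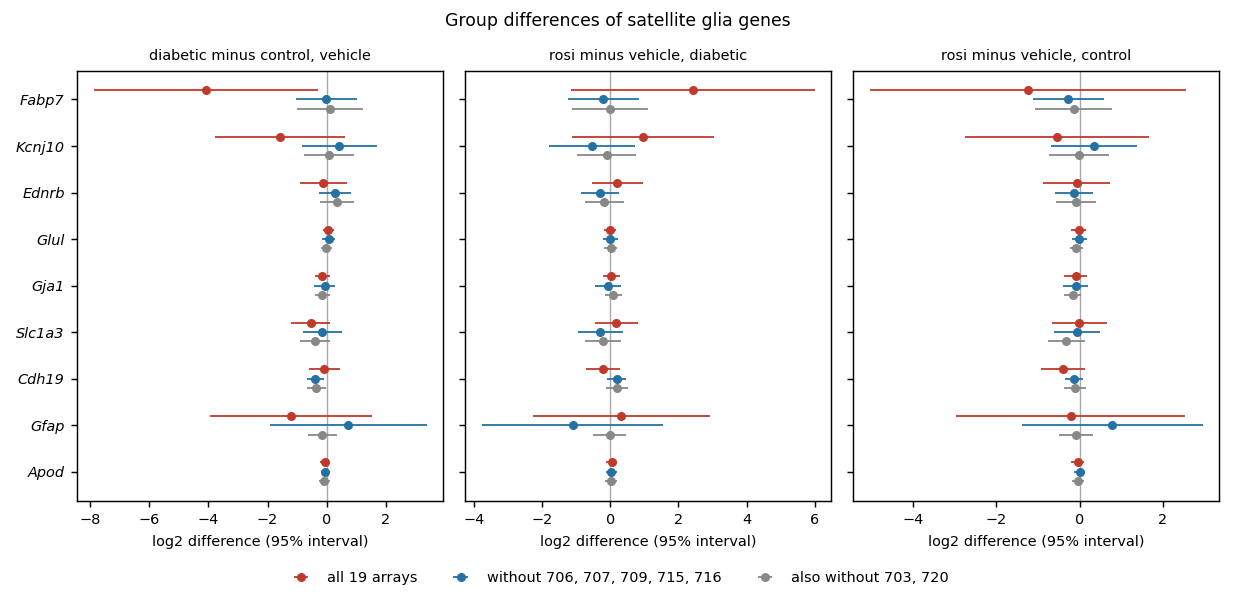
Differences between groups in log2 intensity (horizontal axis) with 95% intervals from limma, for the 9 genes (rows) in 3 comparisons; red is all 19 arrays, blue is without the 5 arrays DR716, DV706, DV707, DV709 and CR715, and grey also without DR720 and CV703. The Fabp7 difference between DV and CV is -4.09 with all arrays and -0.0016 without the 5.

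Genes with related roles were read from lists that were also chosen with earlier results known, and no gene of any list passed the adjusted threshold in any comparison (limma, Benjamini-Hochberg). The counts of these lists stand beside those over all tested genes. Of all 13460, 6069 had a lower median in the 5 arrays and 7385 a higher one, and 4190 a lower one after array median centring. Between DV and CV arrays 6343 of all differed below 0. Between DV and CV arrays 18.1% had an unadjusted p under 0.05, and 4.39% had the 5 arrays all below the other 14. In the glutamate cycle, 7 of 9 tested genes had a lower median in the 5 arrays than in the other 14 and 5 did not overlap, with a median difference of -2.38, beside 0.05 over all tested genes. Slc1a2, the transporter GLT-1, was 5.39 in the 5 arrays and 9.96 in the 14 (medians), the glutamine transporter Slc38a3 5.69 and 8.03, and the neuronal glutamate transporter Slc1a1 5.57 and 7.08. The list also holds Slc17a6 and Slc17a7, the vesicular glutamate transporters of neurons, so it does not stand for glia alone. Its median difference between DV and CV arrays was -1.17, with 1 of 9 at an unadjusted p under 0.05 and 6 of 9 below 0.

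In potassium and water clearance all 6 tested genes were lower in the 5 arrays (5 of 6 after array median centring). Of these genes 3 did not overlap, and the median difference was -1.32. Kcnj16, the channel Kir5.1 that pairs with Kir4.1, was 3.19 in the 5 arrays and 7.37 in the 14, Aqp4 4.87 and 12.11, and the sodium pump subunit Atp1b2 9.70 and 10.87. The median between DV and CV arrays was -0.54, and 0 of 6 had an unadjusted p under 0.05. Among connexins and pannexins 6 of 8 were lower in the 5 arrays, with a median difference of -1.06 and none without overlap. Gjb1, connexin 32 of myelinating Schwann cells, was 8.11 and 9.61, Gjc3, a connexin of myelinating glia, 7.06 and 8.80, and Gjb6, a connexin of astrocytes, 6.17 and 10.25. The list's median between DV and CV arrays was -0.72, with 2 of 8 at an unadjusted p under 0.05, against 18.1% of all tested genes.

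The endothelin list went the other way: 3 of 4 tested genes had a higher median in the 5 arrays, with a median difference of 0.38. The ligand Edn1 was 8.81 in the 5 arrays and 8.09 in the 14 and the converting enzyme Ece1 12.59 and 12.11, while the ligand Edn3 was 7.57 and 9.05. Endothelial cell markers, cells that make Edn1, were higher in the 5 arrays in 7 of 8 genes, and their summed level was 0.21 to 1.17 there and -0.65 to 0.41 in the 14. Their part in the Edn1 level was not tested. The endothelin median between DV and CV arrays was 0.08, with 0 of 4 at an unadjusted p under 0.05.

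Among lipid carriers 6 of 9 genes were lower in the 5 arrays, with a median difference of -0.10 (3 of 9 and 0.05 after array median centring), and 1 did not overlap. That gene was Ptgds, prostaglandin D synthase, a lipocalin of meninges and oligodendrocytes, at 11.70 in the 5 arrays and 14.63 in the 14 (medians), a difference of -2.94. Fabp3, the heart type fatty acid carrier, was next, at 9.40 and 11.54, and both were named after their values were seen. Apoe, the lipoprotein of glia and macrophages, was 13.03 in the 5 arrays and 13.71 in the 14, Fabp5, the epidermal fatty acid carrier, 12.51 and 12.70, and the chaperone Clu 13.59 and 13.69. Apoe differed by -0.81 between DV and CV arrays (-1.54 to -0.08, limma adjusted p = 0.251) and by 0.86 between DR and DV arrays (0.17 to 1.55, limma adjusted p = 0.497). Both rested on DV706 and DV707, where Apoe was 11.48 and 12.13: without these 2 arrays the differences were -0.11 and 0.17, and without the 5 arrays 0.14 and -0.02. With 1 DV array left out, the DV minus CV difference of Apoe was -0.47 without DV706 and -1.04 without DV708 or DV710, and the DR minus DV difference was 0.52 without DV706. Among filament, cadherin and lineage genes 5 of 8 were lower in the 5 arrays, with a median difference of -0.35. Vim, vimentin, the other filament of glia and fibroblasts, was 14.24 and 14.16, Nes, nestin, 9.20 and 10.65, and the cadherin Cdh2 10.35 and 10.44. Between DV and CV arrays these 2 lists had medians of -0.10 and -0.12, with 1 of 9 and 0 of 8 genes at an unadjusted p under 0.05.

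Of 14 other satellite glia genes, 10 had a lower median in the 5 arrays and 1 did not overlap. Entpd2, an enzyme that breaks down extracellular ATP, was 12.16 in the 5 arrays and 11.70 in the 14, while the ATP receptor P2rx7 was 11.06 and 11.75 and the calcium-binding protein S100b 12.42 and 13.48. Between DV and CV arrays 9 of these 14 genes were below 0, with a median of -0.33. At an unadjusted p under 0.05 the counts were 2 of 14 and 18.1% of all tested genes. Between DR and DV arrays the median was 0.10 and between CR and CV arrays -0.13.

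Markers of the other cells the samples could hold were read on the same 5 arrays, beside the same counts over all tested genes. All 12 sensory neuron markers were lower there and 11 did not overlap, with a median difference of -4.23, which restates how these arrays had been set apart and supports nothing. Their summed level was -3.58 to -2.94 in the 5 arrays and 0.03 to 2.04 in the 14. All 10 astrocyte markers were lower (8 of 10 after array median centring), with a median of -4.03, and 6 of 7 oligodendrocyte markers, with -1.68. Myelinating Schwann cell markers were lower in 8 of 12 genes, with -0.54, and their level was -1.10 to 0.31 in the 5 arrays and -0.07 to 0.42 in the 14. Non-myelinating and immature Schwann cell markers were lower in 6 of 8 genes, with -0.66. Skeletal muscle markers had a higher median in 8 of 8 genes, with 2.60, but split the 5 arrays: their level was 2.54 on DR716, 2.97 on DV706 and 3.05 on CR715, and -2.78 on DV707 and -2.65 on DV709. In the other 14 arrays it ran from -2.91 to 4.33. Macrophage markers were higher in 6 of 8 genes, with 0.23. Adipocyte and fibroblast markers differed by 0.27 and -0.05 (0.13 for fibroblasts after array median centring). The adipocyte level ran from -4.33 on DV709 to 2.72 on CR715 in the 5 arrays and from -3.21 to 1.68 in the 14. The part of these cells in the low Fabp7 and Kcnj10 of the 5 arrays was not tested.

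Whether the 9 genes followed the neuron level was tested within the other 14 arrays, since all 19 fall into separate sets. No relation passed (permutation test, two-sided, 100000 resamples, adjusted over the 9 genes). By Pearson's r Gja1 came nearest, at -0.37 (permutation p = 0.194, adjusted 0.932). Fabp7 came nearest by Spearman's rho, at 0.56 (permutation p = 0.0398, adjusted 0.358), with Pearson's r of 0.35 (permutation p = 0.216, adjusted 0.932). Without CV705 and DR719, the arrays farthest from the median neuron level, its r was 0.23, and with each group centred it was 0.48. The r of the other genes ran from -0.37 for Gja1 to 0.05 for Glul. That of Apod was -0.23, and after array median centring it was -0.62 (permutation p = 0.0185, adjusted 0.167), with rho of -0.58 (permutation p = 0.0314, adjusted 0.283).

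Over the same 14 arrays the 9 genes did not vary together. Pearson's r was 0.90 between Kcnj10 and Gfap, 0.81 between Gja1 and Gfap and 0.77 between Kcnj10 and Gja1, against 0.14 between Fabp7 and Gfap, -0.09 between Kcnj10 and Ednrb and -0.56 between Glul and Cdh19. These are descriptions over arrays that share normalization and, for DR720 and CV703, low levels of several glial genes. The mean of the 9 was taken over centred but unscaled values, so genes with a wide range weigh most in it. Over the 14 arrays Gfap ranged over 4.81 log2, Kcnj10 over 2.37 and Fabp7 over 2.01, against 0.14 for Apod. The genes most like this mean were Tmem88b (r of 0.97), Pou3f3 (0.96), Slc39a12 (0.96), Slain1 (0.96), Ermn (0.96), Mobp (0.96), Rfx4 (0.94) and Slc6a11 (0.94). Without DR720 and CV703 these r were between 0.70 and 0.92. Tmem88b was 6.79 on DR720 and 8.04 on CV703 and between 8.53 and 11.06 on the other 12 arrays, the same order as Gfap.

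Each gene had another nearest gene over the 14 arrays. Each r given is the highest among all tested genes that are no member, so it is high in part by selection and was not tested. Gfap was most like Klk6 (r of 0.98), a protease, which was 4.72 on DR720, 4.59 on CV703 and at least 9.60 on the other 12 arrays. Kcnj10 was most like Fgfr3 (0.97), a growth factor receptor of astrocytes, Gja1 most like the claudin Cldn10 (0.94) and Fabp7 most like the kinase Etnk1 (0.95). Ednrb was most like Eri1 (0.91), Cdh19 most like Gulp1 (0.89), Slc1a3 most like the collagen Col4a6 (0.89), Glul most like Igfbp3 (0.87) and Apod most like Sparcl1 (0.87). Without DR720 and CV703 the r of these pairs ran from 0.66 for Glul to 0.95 for Fabp7. Etnk1 lay between 10.10 and 10.82 on the 5 arrays and between 9.98 and 11.04 on the 14, so it was not low there as Fabp7 was, although it had the highest r with it in the 14.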

How the data were processed

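Total RNA of 19 nerves was hybridised to Affymetrix arrays after NuGEN amplification. The deposited values are linear intensities, 1 per probe set, made with RMA per the submitters' processing notes; its version and settings are not given in the sources used here. The log2 of the deposited intensity was taken with no offset. Array medians lay between 83.3 and 101.7 intensity units, and the number of arrays limits the precision. Of 45101 probe sets, 34945 named 1 gene, 932 named several and were not used, 9160 named none and 64 were controls. Each of 18193 genes was given its probe set with the highest mean, and 13460 genes whose mean passed 5.54, the 40th percentile over non-control probe sets, were tested.

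Groups came from the sample titles. Group means over all 19 arrays were fitted with limma 3.58.1 (R 4.3.3), with Benjamini-Hochberg adjustment over the tested genes at 0.05. The code was tested on simulated data. The 5 arrays beside the other 14 were described without a test. The genes named are the 9 members, the first 3 tested genes of each role or cell type list, the 8 genes with the highest r with the members' mean and the nearest gene of each member. Members and lists were chosen with earlier results of these data known. Gene symbols come from GEO's platform annotation, and promoters from RefSeq on GRCm38.p6. Alternatives were filters, an offset of 32, quantile normalization, array median centring, array weights, covariates, all probe sets of a gene, only the groups compared, and arrays left out. Leaving out DR720 and CV703 was chosen after seeing the data.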

Additional observations from a re-analysis of the deposited data

Results flagged for a closer look

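A single array stood apart from the rest of its group in 8 of 36 gene and group sets, by a gap larger than Dixon's 95% critical value for the group's range. Chance alone gives about 1 in 20 such sets, and the sets share arrays. In the low set of Fabp7 and Kcnj10, Fabp7 was 4.29 on DR716, with the other DR arrays at 11.01 to 12.31, and Kcnj10 was 6.17 on CR715, with the other CR arrays at 10.09 to 10.96. CR715 also stood alone in Gfap, at 6.95 against 11.74 to 12.18, and in Cdh19, at 10.44 against 11.57 to 11.90. CV703 stood alone in Gfap, at 8.54 against 11.71 to 12.36, and in Apod, at 14.41 against 14.53 to 14.55. Gja1 was 12.22 on DR720, against 12.75 to 12.89 on the other DR arrays. Ednrb, in the probe set used, was 9.41 on DV709, against 11.26 to 11.92 on the other DV arrays. No DV array stood alone in Fabp7, Kcnj10 or Gfap, where 3 of 5 were low.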

How the results depend on the processing

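No gene of the 9 passed the adjusted threshold under any alternative that was run. Counts at an unadjusted p under 0.05 (limma) moved, given here with those over 13460 genes in brackets. With all probe sets averaged they were 2 of 9 (2592) for DV minus CV, 1 of 9 (1146) for DR minus DV and 1 of 9 (765) for the interaction. Without DR716 they were 1 of 9 (2748), 1 of 9 (2686) and 1 of 9 (1428). Without DV706 they were 0 of 9 (1223), 0 of 9 (447) and 0 of 9 (332). No paired analysis was possible because the groups share no replicate numbers. Leaving out DV710 gave 4 genes of the array past the threshold between DV and CV (0 to 4 over the arrays left out), and array weights gave 20 between CR and CV, none of them among the 9. Of the 9 genes' differences between DV and CV, DR and DV, and CR and CV, 43 of 270 changed sign under settings that can move a difference, and 32 of 252 with 1 array left out; the other filters on low values and the fit of only the compared groups leave a difference as it is and are not counted. Between DV and CV without the 5 arrays, Kcnj10 was 0.44, Ednrb 0.29 and Gfap 0.74; with DR720 and CV703 also left out, Fabp7 was 0.12, Kcnj10 0.072, Ednrb 0.35 and Glul -0.0049. There, with the neuron level as a covariate, Cdh19 was 0.055 and Gfap 0.14, and with array centring Cdh19 was 0.022 and Apod 0.026. Between DR and DV without the 5 arrays, Fabp7 was -0.21, Kcnj10 -0.53, Ednrb -0.30, Gja1 -0.062, Slc1a3 -0.29, Cdh19 0.19 and Gfap -1.10. With DR720 and CV703 also left out they were -0.015, -0.11, -0.17, 0.087, -0.21, 0.19 and -0.012, and Glul was 0.011. Glul was 0.034 with array weights, 0.013 with the Gapdh covariate, 0.0049 without DV706 and DV707 and 0.065 with all probe sets. Gfap was -0.50 with the Gapdh covariate, -0.71 with the neuron covariate and -0.36 without DV706 and DV707; Kcnj10 was -0.062 with the neuron covariate. With array centring Gja1 was -0.050 and Apod -0.043, and with all probe sets Apod was -0.023. Between CR and CV, Kcnj10 was 0.25 and Gfap 0.53 with array weights, 0.34 and 0.79 without the 5 arrays; Gfap was 0.065 with the neuron covariate, Glul 0.063 with all probe sets and Slc1a3 0.011 with quantile normalization. Between DR and CR, Fabp7 was 0.063 without the 5 arrays and 0.26 with DR720 and CV703 also left out.

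With 1 array left out at a time, DV minus CV ran from -5.12 to -3.23 for Fabp7, from -2.20 to -1.06 for Kcnj10, from -0.31 to 0.32 for Ednrb, from -0.014 to 0.10 for Glul and from -0.19 to 0.0049 for Cdh19. DR minus DV ran from 1.56 to 3.88 for Fabp7, from -0.22 to 0.41 for Ednrb, from -0.035 to 0.030 for Glul, from -0.015 to 0.15 for Gja1, from -0.10 to 0.33 for Slc1a3 and from -0.14 to 1.01 for Gfap. CR minus CV ran from -1.63 to -0.27 for Fabp7, from -0.90 to 0.34 for Kcnj10, from -0.20 to 0.025 for Ednrb, from -0.10 to 0.0093 for Glul, from -0.26 to 0.13 for Slc1a3 and from -1.10 to 0.79 for Gfap. DR minus CR ran from -1.40 to 1.03 for Fabp7 and from -1.67 to 0.019 for Gfap, and the interaction from 2.70 to 5.13 for Fabp7.

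The medians of the 5 arrays minus those of the other 14 moved to -5.64 for Fabp7 with an offset of 32, to 0.10 for Glul, 0.20 for Cdh19 and 0.067 for Apod with array centring, and to 0.083 for Glul, -0.69 for Slc1a3 and -0.047 for Apod with all probe sets. The r with the neuron level turned to 0.21 for Kcnj10 and 0.059 for Slc1a3 without DR720 and CV703 and to -0.16 for Glul with array centring. With those 2 arrays left out, rho of Fabp7 was 0.75 (permutation p = 0.0068, adjusted 0.0612). The cause of these moves was not tested. Few arrays and DV arrays of unlike level limit every comparison of Fabp7, Kcnj10 and Gfap.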
